A study of Homo sapiens with 9 samples.

Results

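Expression of the 5 lysyl oxidases (LOX, LOXL1, LOXL2, LOXL3 and LOXL4) and of 5 matricellular or adhesive matrix genes (TNC, THBS1, FN1, SPARC and POSTN) was followed in TC-32 cells, an established human cell line from Ewing sarcoma with the fusion gene EWSR1::FLI1. These 10 genes were chosen by symbol, and each symbol matched 1 of the 58381 gene rows of the count table. Polyadenylated RNA was sequenced from 9 libraries in 3 groups of 3, labelled RFP, ETS1-Low and ETS1-High. The RFP cells carried the pLOC lentiviral vector with red fluorescent protein, and the other 2 groups carried a synthetic ETS1 cDNA in the same vector, ETS1-Low cells with less ETS1 than ETS1-High cells. All 3 groups kept EWSR1::FLI1, and the labels describe puromycin selection and sorting into single cells. The series text calls the ETS1-High cells clones from single cells, with ETS1 comparable to that of fusion-depleted cells. How many clones stand behind a group is not given, so ETS1 dose and clone cannot be told apart here. The labels do not say whether the 3 libraries of a group were separate cultures, so p-values measure only the spread between these libraries, which may be technical.

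Lysyl oxidases are secreted copper enzymes that oxidise lysine residues of collagens and elastin, the step from which covalent cross-links form. LOX and LOXL1 are made as proenzymes cleaved by BMP1-type proteases, whereas LOXL2, LOXL3 and LOXL4 carry scavenger receptor domains. Matricellular proteins such as tenascin C (TNC), thrombospondin-1 (THBS1), SPARC and periostin (POSTN) sit in the matrix and act on cells through integrins and other receptors, and fibronectin (FN1) is an adhesive glycoprotein that assembles into fibrils. ETS1 and the FLI1 part of the fusion are ETS transcription factors, which bind sites with a GGAA core, and EWSR1::FLI1 is known for binding runs of GGAA repeats.

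The upstream sequences are shown because ETS factors read the GGAA core and because the genes below moved in different directions between the groups. RefSeq start sites (GRCh38.p14) were matched for 9 of the 10 genes, and LOXL2 is named only. Of 3 RefSeq entries for LOX and 2 for LOXL3, the one nearest the start of the GENCODE gene was used. The RefSeq start lay 473 bases inside the GENCODE gene for LOXL1 and 1748 bases inside for LOXL3. Their whole 250-base windows, and 154 of the 250 bases for LOX, therefore lie within the annotated gene. The core GGAA, the longer ETS-type motif CCGGAAG, the double core GGAAGGAA (each match of which also counts for the single core) and the promoter motif TATAAA were searched on both strands in the 250 bases before the start. LOX, TNC and POSTN were each called in opposite directions in the 2 ETS1 groups, THBS1 fell far below RFP in ETS1-Low, as POSTN did, and FN1 was the only one of the 9 without a GGAA core. Each sequence is written 5′ to 3′ on the strand of the gene, from 250 bases before the RefSeq start up to the first base of the GENCODE gene, with GGAA and its reverse complement TTCC in capitals. They cover chr5:122078414-122078509 (minus strand), chr9:115118208-115118407 (minus strand), chr13:37598845-37599018 (minus strand), chr15:39580829-39581078 (plus strand) and chr2:215436074-215436318 (minus strand).
LOX: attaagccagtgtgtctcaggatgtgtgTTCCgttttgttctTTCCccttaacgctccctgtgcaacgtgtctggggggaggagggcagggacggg
TNC: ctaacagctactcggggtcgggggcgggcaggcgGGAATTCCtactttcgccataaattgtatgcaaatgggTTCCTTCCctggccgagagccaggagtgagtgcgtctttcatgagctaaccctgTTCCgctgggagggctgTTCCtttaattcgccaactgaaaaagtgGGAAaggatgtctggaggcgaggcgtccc
POSTN: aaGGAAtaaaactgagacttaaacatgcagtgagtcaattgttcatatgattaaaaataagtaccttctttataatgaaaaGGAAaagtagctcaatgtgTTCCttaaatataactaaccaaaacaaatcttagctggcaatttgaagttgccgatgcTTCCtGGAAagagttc
THBS1: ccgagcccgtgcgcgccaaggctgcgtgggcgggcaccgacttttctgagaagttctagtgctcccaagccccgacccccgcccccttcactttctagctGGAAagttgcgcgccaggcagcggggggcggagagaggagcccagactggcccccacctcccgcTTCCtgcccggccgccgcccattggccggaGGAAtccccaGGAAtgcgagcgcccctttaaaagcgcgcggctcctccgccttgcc
FN1: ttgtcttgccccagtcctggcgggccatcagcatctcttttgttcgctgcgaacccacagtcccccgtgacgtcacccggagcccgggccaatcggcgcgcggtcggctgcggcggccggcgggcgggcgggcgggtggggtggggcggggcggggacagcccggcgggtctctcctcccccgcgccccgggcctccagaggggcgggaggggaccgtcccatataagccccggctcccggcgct
Over the 250 bases, the core was found 8 times for TNC, 6 times for POSTN, 5 times each for SPARC and LOXL3, 4 times each for LOX and THBS1, 3 times for LOXL1, 2 times for LOXL4 and 0 times for FN1. Among 35116 RefSeq promoter windows of that length, 92.7% held at least 1 core, the median was 3, 9.14% held at least 6 and 1.7% held at least 8. TNC was the only one of the 9 genes with the double core (1 match, found in 3.06% of windows), which stands in its sequence as TTCCTTCC. The longer motif was found for 0 of the 9 genes, against 8.52% of windows. TATAAA was found for POSTN alone, with 2 matches over both strands, and 10.7% of windows held it. These matches describe letters and are not measured binding sites.

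Total expected counts ran from 39484704 to 46654734 per library. ETS1, the gene introduced, measured 1.81, 2.03 and 2.15 CPM (counts scaled to library size, here with TMM factors) in RFP, 10.6, 10.8 and 10.2 in ETS1-Low and 19.4, 18.2 and 19.7 in ETS1-High, which follows the labels in all 9 libraries. These ETS1 values do not separate RNA of the introduced cDNA from that of the cells' own gene. Of 11 Ewing sarcoma markers, 11 were at 1 CPM or more in each group. Of 8 fibroblast markers, 5 reached that level in each group, and their summed level was 291 to 322.2 CPM in RFP, 402.2 to 408.9 in ETS1-Low and 524.5 to 561.5 in ETS1-High. COL3A1, also a lysyl oxidase substrate, made up most of that sum (mean 176, 342 and 450 CPM), while LUM was at 0 in RFP and ETS1-Low and at 0.385 CPM in ETS1-High, and DCN was at 0.0138, 0.0406 and 0.914 CPM. The list did not move as one: the group means of PDGFRB were 74.2, 20.5 and 26 CPM, those of PDGFRA 12.8, 3.72 and 2.95, and those of COL1A1 39.3, 28.3 and 50.9. The summed Ewing sarcoma markers measured 2940 to 3082 CPM in RFP, 4747 to 4835 in ETS1-Low and 4757 to 4792 in ETS1-High. CCND1 made up most of that sum (mean 1550, 2520 and 2500 CPM). KDSR measured 109, 431 and 425 CPM, XG 7.99, 55.5 and 54.3, and LIPI 19.4, 61.2 and 60.5. NKX2-2 (89.5, 104 and 96.2) and NR0B1 (335, 417 and 369) changed little beside these. Endothelial marker sums were at most 6.76 CPM and leukocyte marker sums at most 2.72 CPM in any library. The part of either marker list in the results below was not tested. In bulk RNA, fewer cells that express a gene and less RNA per cell cannot be told apart.

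Genes were tested with edgeR's quasi-likelihood test and called at a Benjamini-Hochberg adjusted p under 0.05 over the 17235 genes that passed the count filter; 9 of the 10 genes passed and LOXL4 did not. In ETS1-High against RFP, 9 of 9 were called, 5 higher and 4 lower, and 5 had changed at least 2-fold. The background in that comparison was 74.2% of all tested genes called, 37% higher and 37.2% lower, and 21% called with a change of at least 2-fold. In ETS1-Low against RFP, 8 of 9 were called, 2 higher and 6 lower, 4 of them at least 2-fold, against a background of 74.1% called, 37.9% higher, 36.2% lower and 20.6% at least 2-fold. In ETS1-High against ETS1-Low, 8 of 9 were called, 5 higher and 3 lower, 4 of them at least 2-fold, against 59.2% called, 29.9% higher, 29.3% lower and 9.74% at least 2-fold. With so many genes called throughout, a call by itself says little about these 10 genes, and the sizes and directions below carry the description. The share of all tested genes whose groups did not overlap was not counted, so statements on overlap below describe levels only. The median log2 fold change of the 9 genes was 0.44, -0.71 and 0.41 in these comparisons, and that of all tested genes was -0.01, 0.01 and -4.67e-05. Both comparisons against RFP share the same 3 RFP libraries.

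**Figure D1:**
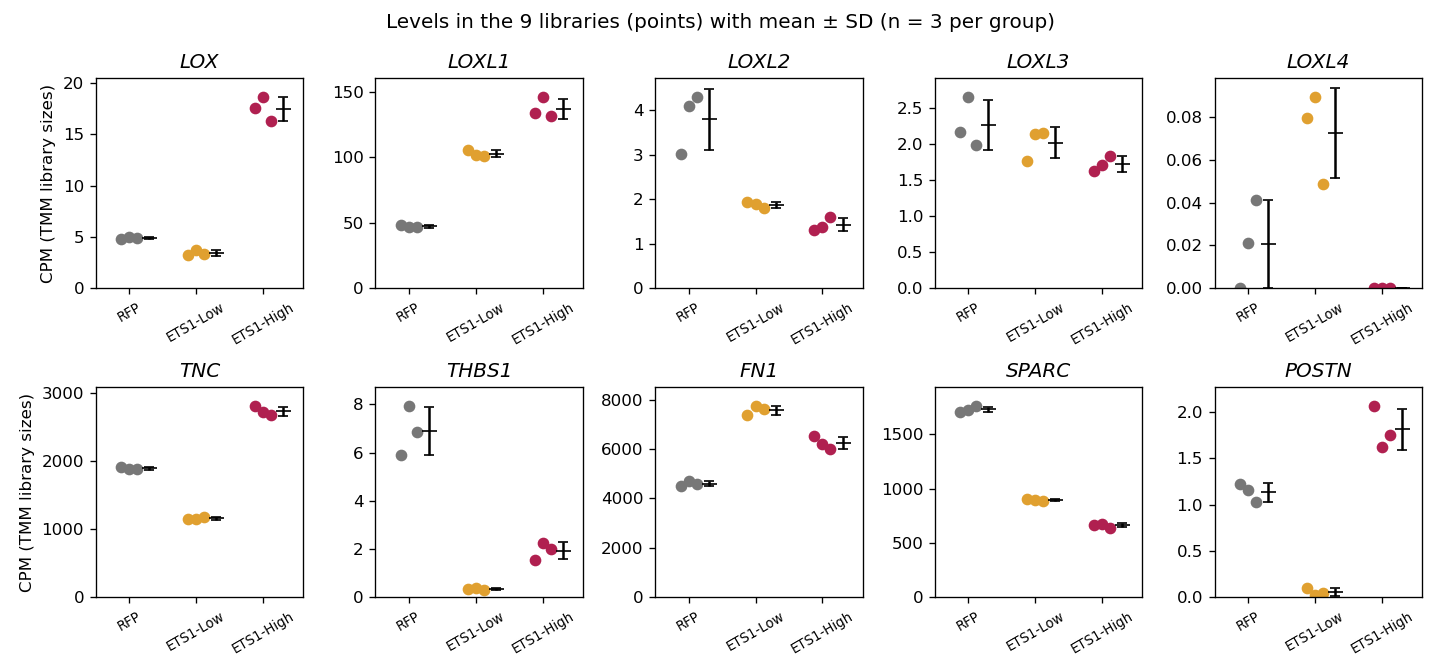
Level of each of the 10 genes in CPM (vertical axis from 0, own scale per gene) in the 9 libraries by group, with points for libraries and bars for mean ± SD (n = 3). LOX is highest in ETS1-High (16.3 to 18.6 CPM), POSTN and THBS1 are near 0 in ETS1-Low, and SPARC is highest in RFP.

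**Figure D2:**
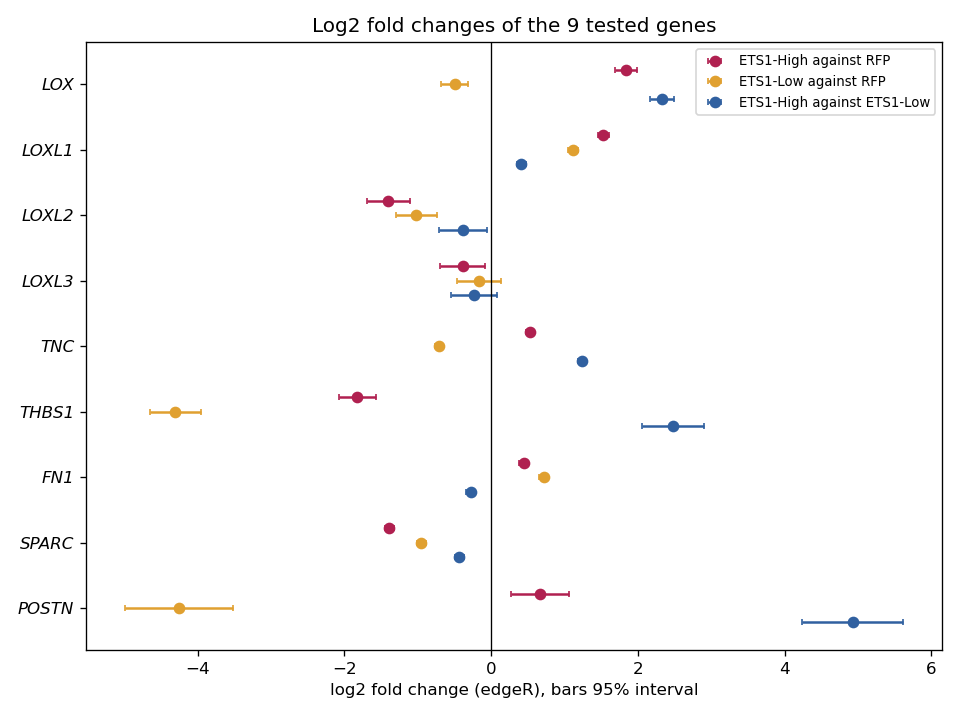
Log2 fold changes of the 9 tested genes (points) with 95% intervals from edgeR (bars) in the 3 comparisons. Against RFP, LOX, TNC and POSTN lie above 0 in ETS1-High and below 0 in ETS1-Low.

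LOX, the founding lysyl oxidase, was higher in ETS1-High and lower in ETS1-Low than in RFP. LOX (ENSG00000113083) lies at chr5:122063195-122078413 on the minus strand (GENCODE v44, GRCh38). Its level was 4.80, 5.04 and 4.88 CPM in the RFP libraries, 3.25, 3.78 and 3.35 in ETS1-Low, and 17.5, 18.6 and 16.3 in ETS1-High. The 3 groups did not overlap. LOX rose 3.56-fold in ETS1-High against RFP (log2 fold change 1.83, SE 0.077, edgeR adjusted p = 5.16e-27). It fell in ETS1-Low, where the log2 fold change was -0.50 (SE 0.095, edgeR adjusted p = 7.11e-06), a 1.41-fold lower level. Between the 2 ETS1 groups LOX differed 5.03-fold (log2 2.33, SE 0.0832, edgeR adjusted p = 1.97e-29), and 3.02% of tested genes showed a difference at least that large. The fall in ETS1-Low was not called in the FPKM data (adjusted p from 0.0588 to 0.197 with limma), where LOX values of ETS1-Low and RFP touch at 1.20 FPKM.

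LOXL1, which is known for its part in elastic fibre upkeep, was higher in both ETS1 groups. It (ENSG00000129038, chr15:73925989-73952137, plus strand) measured 48.7, 47.1 and 46.5 CPM in RFP, 105.6, 101.6 and 101.3 in ETS1-Low, and 133.8, 145.6 and 131.1 in ETS1-High. The groups did not overlap, with RFP lowest and ETS1-High highest. The rise was 2.17-fold in ETS1-Low (log2 1.12, SE 0.0365, edgeR adjusted p = 1.34e-30) and 2.89-fold in ETS1-High (log2 1.53, SE 0.0359, edgeR adjusted p = 1.16e-36). ETS1-High exceeded ETS1-Low by 1.33-fold (log2 0.41, SE 0.0339, edgeR adjusted p = 6.39e-15). An antisense RNA, LOXL1-AS1, covers 9.2% of the exon bases of LOXL1 and had 682 to 1436 counts. Whether counting used strand is not given in the sources used here.

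LOXL2 and LOXL3 were lower where they differed from RFP. LOXL2 (ENSG00000134013, chr8:23296897-23425328, minus strand), an enzyme that cross-links basement membrane collagen IV, measured 3.01, 4.10 and 4.28 CPM in RFP, 1.93, 1.89 and 1.81 in ETS1-Low, and 1.32, 1.38 and 1.59 in ETS1-High. All ETS1 libraries lay below all RFP libraries in CPM, and the RFP libraries spread most. On the deposited FPKM, ETS1-Low library 1 (1.14) lay above RFP library 1 (1.00). LOXL2 shares 2.0% of its exon bases with ENTPD4 on the same strand, which had 2593 to 4297 counts per library. LOXL2 was 2.02-fold lower in ETS1-Low (log2 -1.02, SE 0.145, edgeR adjusted p = 1.76e-08) and 2.65-fold lower in ETS1-High (log2 -1.40, SE 0.15, edgeR adjusted p = 7.19e-12). The log2 difference of -0.39 (SE 0.167) between ETS1-High and ETS1-Low passed narrowly (edgeR adjusted p = 0.0417). That call was lost with DESeq2 (adjusted p = 0.109) and in edgeR without any 1 of ETS1-Low libraries 1, 2 and 3 or ETS1-High libraries 1 and 2 (adjusted p from 0.0552 to 0.12), so the order of the 2 ETS1 groups is not settled.

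LOXL3 (ENSG00000115318, chr2:74532258-74555690, minus strand) measured 2.16, 2.65 and 1.99 CPM in RFP, 1.77, 2.13 and 2.15 in ETS1-Low, and 1.62, 1.71 and 1.84 in ETS1-High. ETS1-Low overlapped both other groups. Only ETS1-High against RFP was called (log2 -0.39, SE 0.155, edgeR adjusted p = 0.0222), a 1.31-fold lower level. The call was lost without RFP library 2 (edgeR adjusted p = 0.164), ETS1-High library 1 (0.0751) or ETS1-High library 2 (0.056), and with DESeq2 (0.0558). ETS1-Low against RFP gave a log2 difference of -0.16 with a 95% interval from -0.46 to 0.14 (edgeR adjusted p = 0.345), and ETS1-High against ETS1-Low gave -0.23 with an interval from -0.54 to 0.09 (edgeR adjusted p = 0.224). LOXL3 shares 20.7% of its exon bases with HTRA2 on the opposite strand, so its counts are uncertain if strand was not used.

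LOXL4 (ENSG00000138131, chr10:98247690-98268194, minus strand) was at the limit of detection. It had 0, 1 and 2 counts in RFP, 3, 4 and 2 in ETS1-Low and 0, 0 and 0 in ETS1-High. A library with 0 counts allows up to 3 counts, or 0.0623 CPM in RFP library 1 and 0.0667 to 0.0762 CPM in the ETS1-High libraries. The summed counts of 9 in ETS1-Low and 3 in RFP gave a ratio of 3.49 with a 95% counting interval from 0.87 to 20, so no difference between those 2 groups was detectable at this depth, and ETS1-High, with 0 counts, was not tested against either. Such intervals and limits cover counting error only.

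On the length-scaled FPKM values, LOXL1 supplied most lysyl oxidase mRNA in every group. Its share of the summed FPKM of the 5 genes was 89.5% ± 1.99 in RFP, 96.4% ± 0.143 in ETS1-Low and 94.2% ± 0.375 in ETS1-High (SD, n = 3). The summed FPKM was 40.4 ± 1.40, 74.3 ± 2.92 and 102 ± 0.935. LOX held 3.18% ± 0.345, 1.30% ± 0.222 and 4.50% ± 0.651 of it. LOX was therefore a small part of the family's mRNA even in ETS1-High, where its mean level was 4.60 FPKM beside 96.3 for LOXL1.

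TNC, an extracellular glycoprotein of developing and remodelling tissue, moved in opposite directions in the 2 ETS1 groups. It (ENSG00000041982, chr9:115019575-115118207, minus strand) measured 1914, 1877 and 1890 CPM in RFP, 1145, 1154 and 1177 in ETS1-Low, and 2800, 2718 and 2673 in ETS1-High. The groups did not overlap, and the spread within each was small beside the gaps. TNC rose 1.44-fold in ETS1-High (log2 0.53, SE 0.0294, edgeR adjusted p = 5.97e-22). It was 1.63-fold lower in ETS1-Low (log2 -0.71, SE 0.0296, edgeR adjusted p = 4.38e-27). ETS1-High exceeded ETS1-Low by 2.36-fold (log2 1.24, SE 0.0299, edgeR adjusted p = 1.11e-36), a size reached by 8.45% of tested genes.

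THBS1, which encodes an adhesive glycoprotein that can activate latent TGF-beta and restrains vessel growth, was lower in both ETS1 groups and lowest in ETS1-Low. It (ENSG00000137801, chr15:39581079-39599466, plus strand) had 285, 371 and 335 counts in RFP, 13, 18 and 12 in ETS1-Low and 61, 101 and 90 in ETS1-High. These are 5.92, 7.92 and 6.86 CPM, then 0.344, 0.400 and 0.293, then 1.55, 2.25 and 2.02. The 3 groups did not overlap, so the order was RFP, ETS1-High, ETS1-Low. THBS1 was 19.7-fold lower in ETS1-Low (log2 -4.30, SE 0.177, edgeR adjusted p = 6.71e-27), and the ratio of summed counts gave 19.8 with a counting interval from 14.6 to 27.6. It was 3.54-fold lower in ETS1-High (log2 -1.82, SE 0.129, edgeR adjusted p = 8.9e-18). ETS1-High exceeded ETS1-Low by 5.57-fold (log2 2.48, SE 0.216, edgeR adjusted p = 2.99e-14).

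POSTN, a protein that binds collagen and integrins, was nearly lost in ETS1-Low and modestly higher in ETS1-High. It (ENSG00000133110, chr13:37562583-37598844, minus strand) had 59, 54 and 50 counts in RFP, 4, 1 and 2 in ETS1-Low and 81, 73 and 78 in ETS1-High, so it was scarce in all groups. The mean level was 1.13 ± 0.102 CPM in RFP, 0.0590 ± 0.0427 in ETS1-Low and 1.81 ± 0.223 in ETS1-High (SD, n = 3). POSTN rose 1.59-fold in ETS1-High (log2 0.67, SE 0.201, edgeR adjusted p = 0.00268) and was 19.1-fold lower in ETS1-Low (log2 -4.26, SE 0.374, edgeR adjusted p = 1.38e-14). The 7 counts in all of ETS1-Low leave that size loosely known: the ratio of summed counts was 20 with a counting interval from 9.51 to 50.6. ETS1-High exceeded ETS1-Low by 30.4-fold in the fit (log2 4.92, SE 0.351, edgeR adjusted p = 1.95e-17), with a counting interval from 15.2 to 80 around a ratio of 31.8.

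FN1 was higher in both ETS1 groups, and more so in ETS1-Low. It (ENSG00000115414, chr2:215360440-215436073, minus strand) measured 4504, 4710 and 4587 CPM in RFP, 7372, 7718 and 7600 in ETS1-Low, and 6516, 6209 and 6014 in ETS1-High. The groups did not overlap. FN1 rose 1.64-fold in ETS1-Low (log2 0.72, SE 0.0323, edgeR adjusted p = 9.44e-26) and 1.36-fold in ETS1-High (log2 0.44, SE 0.0322, edgeR adjusted p = 1.87e-17). ETS1-High was 1.21-fold below ETS1-Low (log2 -0.28, SE 0.0321, edgeR adjusted p = 1.71e-10).

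SPARC, a collagen-binding protein that takes part in matrix assembly, was lower in both ETS1 groups. It (ENSG00000113140, chr5:151661096-151686975, minus strand) measured 1703, 1725 and 1755 CPM in RFP, 904.6, 893.7 and 883.5 in ETS1-Low, and 667.3, 676.8 and 640.7 in ETS1-High. The groups did not overlap, and the order was the reverse of that of LOXL1. SPARC was 1.93-fold lower in ETS1-Low (log2 -0.95, SE 0.0295, edgeR adjusted p = 1.25e-32) and 2.61-fold lower in ETS1-High (log2 -1.38, SE 0.0299, edgeR adjusted p = 1.16e-39). ETS1-High was 1.35-fold below ETS1-Low (log2 -0.43, SE 0.0296, edgeR adjusted p = 3.64e-18).

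Per gene length, 3 of these genes were among the abundant mRNAs of the line in every group. In RFP the mean FPKM was 1279 ± 59.4 for SPARC, 890.4 ± 35.5 for FN1, 351.1 ± 5.09 for TNC and 36.2 ± 2.04 for LOXL1 (SD, n = 3). LOXL2 (1.80 ± 0.867), THBS1 (1.42 ± 0.301), LOX (1.29 ± 0.142) and LOXL3 (1.12 ± 0.221) lay close together, with library ranges that overlapped, and POSTN followed at 0.427 ± 0.0702. SPARC fell from rank 87 of all genes by mean FPKM in RFP to 155 in ETS1-Low and 178 in ETS1-High, while FN1 moved from 114 to 86 in both. The order of the leading genes therefore differed: SPARC before FN1 in RFP, and FN1 before SPARC in ETS1-Low (1452 ± 33.1 and 646.1 ± 8.33 FPKM) and ETS1-High (1240 ± 12 and 476.3 ± 27.6). In ETS1-High the library values of TNC (461.7 to 494.4) and SPARC (451.5 to 506.0) overlapped.

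**Figure D3:**
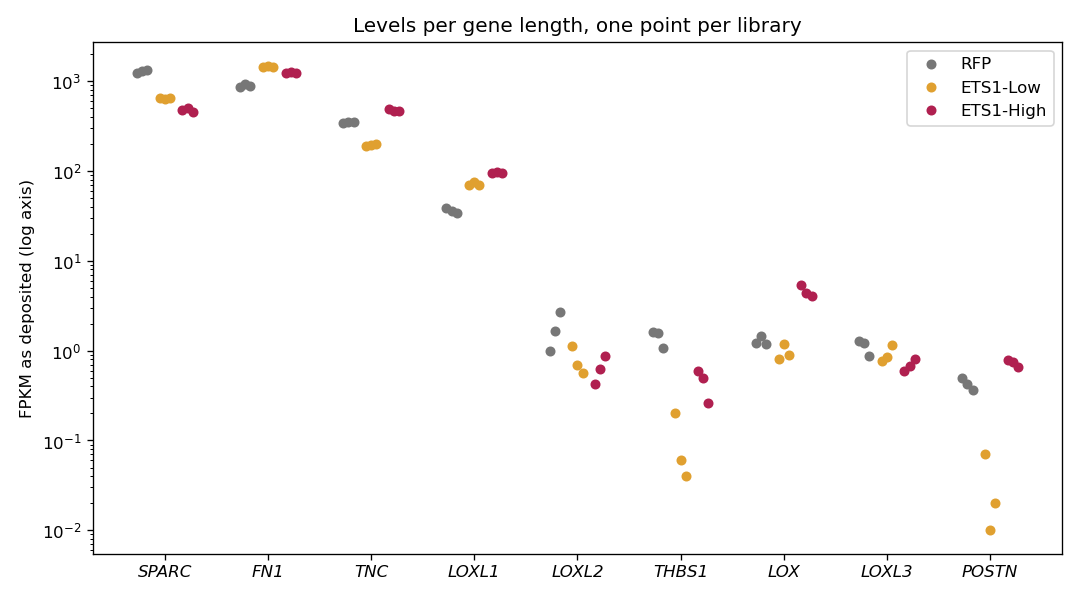
Deposited FPKM (log axis) of the 9 tested genes in each library, ordered by the RFP mean, with 1 point per library and colour for group. SPARC, FN1, TNC and LOXL1 lie at 34.1 FPKM or more in every library and the other 5 genes at 5.35 or less, and LOXL4, listed at 0 to 0.02 FPKM, is left out.

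To show how the surroundings of each gene moved, its change was set beside the median log2 fold change of the other expressed genes within 10 Mb of its start. FN1 lay in a stretch that was itself higher: the median of 76 neighbours was 0.58 against RFP in ETS1-High, and 0.33 in ETS1-Low, beside 0.44 and 0.72 for FN1. In ETS1-High against ETS1-Low the FN1 neighbours had a median of 0.29, while FN1 was at -0.28. The 80 neighbours of TNC had a median of -0.43 in ETS1-Low and -0.03 in ETS1-High against RFP, beside -0.71 and 0.53 for TNC. Between the ETS1 groups their median was 0.44, in the same direction as TNC at 1.24. For SPARC, 69 neighbours had medians of -0.43 and -0.43 in ETS1-High and ETS1-Low, beside -1.38 and -0.95. The 44 neighbours of LOX stood at -0.29 and -0.30, beside 1.83 and -0.50 for LOX, which leaves 2.12 and -0.20. Within 5 Mb, with 15 neighbours, the LOX remainders were 2.10 and -0.31. LOXL2 was within 0.07 of its 76 neighbours in ETS1-High against ETS1-Low (-0.39 and a median of -0.32). The neighbours of POSTN had medians of -0.06 and -0.06, and those of THBS1 -0.10 and 0.21, far from the changes of those 2 genes in ETS1-Low. The part of such neighbourhood shifts in the changes of single genes was not tested.

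**Figure D4:**
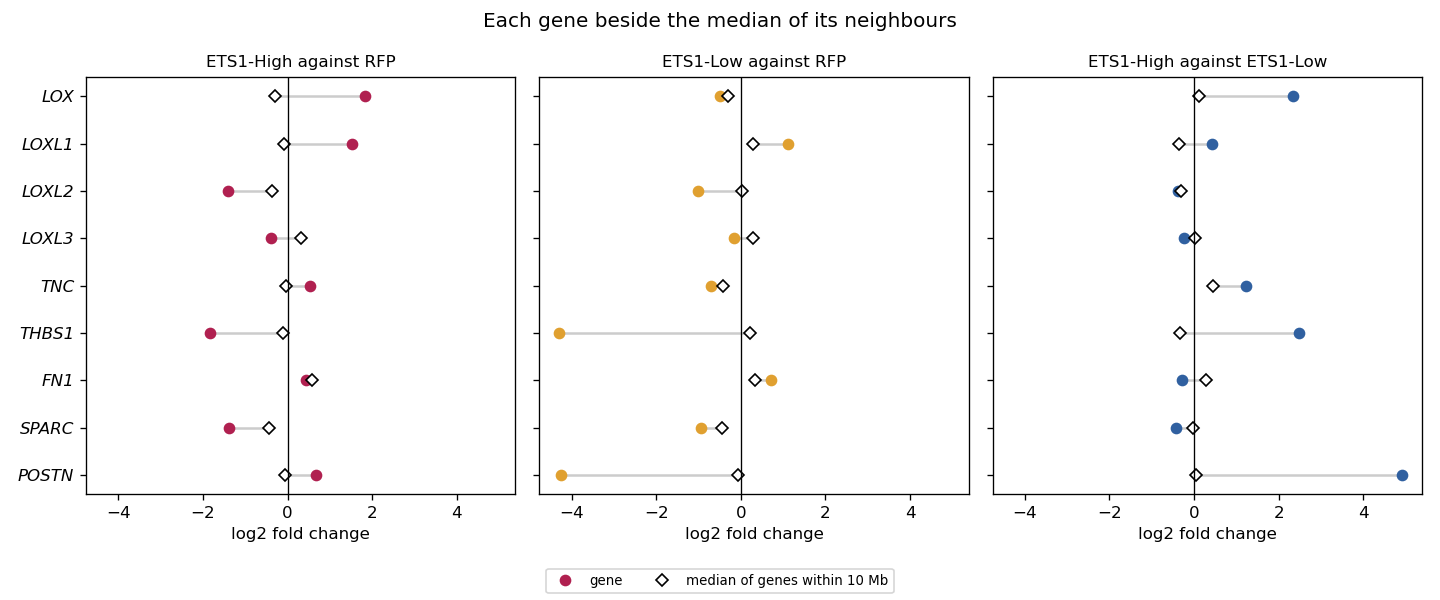
Log2 fold change (horizontal axis) of each of the 9 tested genes (filled circles) beside the median of expressed genes within 10 Mb (open diamonds) in the 3 comparisons. FN1 lies close to its neighbours in ETS1-High against RFP (0.44 and 0.58), whereas in ETS1-Low POSTN (-4.26) and THBS1 (-4.30) lie far from theirs (-0.06 and 0.21).

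The fibrillar collagens on which lysyl oxidases act, with genes of the elastic fibre, formed a list of 28 genes, of which 26 were tested. In ETS1-High against RFP 15 were called higher and 8 lower (median log2 fold change 0.72), in ETS1-Low 11 higher and 13 lower (median -0.11), and between the ETS1 groups 19 higher and 4 lower in ETS1-High. The shares called were 88.5%, 92.3% and 88.5%, beside 74.2%, 74.1% and 59.2% of all tested genes. With at least 2-fold change they were 53.8%, 42.3% and 38.5%, beside 21%, 20.6% and 9.74%. The median between the ETS1 groups was 0.92, or 0.87 with 2 genes that had at most 3 counts in each library of a group set to a bound. COL3A1 and COL5A2, collagen chains, rose in both ETS1 groups: COL3A1 measured 176.4 ± 8.34 CPM in RFP, 341.8 ± 1.37 in ETS1-Low and 450.3 ± 16.9 in ETS1-High (SD, n = 3), and COL5A2 measured 37.1 ± 2.52, 69.0 ± 0.732 and 136.7 ± 2.56. COL5A1, the partner chain of COL5A2 in type V collagen, fell instead, 13.8-fold in ETS1-Low (log2 -3.79, SE 0.0469, edgeR adjusted p = 1.55e-33) and 1.67-fold in ETS1-High (log2 -0.74, SE 0.0365, edgeR adjusted p = 1.3e-17). COL11A1, also a fibrillar chain, measured 253.3 ± 10.2, 43.0 ± 1.44 and 119 ± 3.81 CPM and fell in both. COL1A2, looked up after the values were seen, had at most 1 count in any library while its partner chain COL1A1 measured 28.3 to 50.9 CPM in the group means.

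Elastic fibre genes split. LTBP1, which holds latent TGF-beta in microfibrils, rose 8.52-fold in ETS1-High (8.67 ± 0.377 to 73.9 ± 3.23 CPM, edgeR adjusted p = 1.24e-45) and was slightly lower in ETS1-Low at 7.32 ± 0.234 CPM (edgeR adjusted p = 0.000843). MFAP4, a microfibril-associated protein, measured 1.52 ± 0.156 CPM in RFP, 0.164 ± 0.0459 in ETS1-Low and 5.41 ± 0.474 in ETS1-High, and was called in the same 2 directions as LOX. FBN2, a fibrillin, fell from 27.1 ± 0.860 CPM to 0.404 ± 0.0520 in ETS1-Low and 0.759 ± 0.0567 in ETS1-High. FBLN5, known for bringing LOXL1 to elastin, fell from 17.5 ± 0.713 CPM to 2.05 ± 0.234 and 4.50 ± 0.168 (SD, n = 3 for each value; both falls called by edgeR). LOXL1 and FBLN5 thus moved apart in both ETS1 groups.

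Collagen processing and copper supply, which act before or beside the lysyl oxidases, formed a list of 29 genes, of which 28 were matched and 25 tested. In ETS1-High against RFP 13 were called higher and 10 lower (median 0.15), in ETS1-Low 16 higher and 8 lower (median 0.22), and between the ETS1 groups 5 higher and 11 lower in ETS1-High (median -0.06). The shares called were 92%, 96% and 64%, beside 74.2%, 74.1% and 59.2% of all tested genes, so the last share lay near the background. The shares called with at least 2-fold change were 16%, 24% and 16%, beside 21%, 20.6% and 9.74% of all tested genes. PLOD2, the lysyl hydroxylase of collagen telopeptides, fell from 10.1 ± 0.207 CPM to 0.203 ± 0.0732 in ETS1-Low and 0.818 ± 0.0842 in ETS1-High, which is 49.2-fold (edgeR adjusted p = 1.81e-33) and 12.3-fold (edgeR adjusted p = 2.77e-30). P4HB, a subunit of prolyl 4-hydroxylase, rose from 354.3 ± 11.3 CPM to 641.1 ± 16.5 and 638.9 ± 6.37 (called in both), and FKBP10, a collagen chaperone, from 51.0 ± 3.03 to 82.0 ± 1.80 and 62.2 ± 2.38 (called in both, but in ETS1-High not on FPKM, with limma adjusted p from 0.462 to 0.568). TLL1, a protease of the BMP1 family, rose from 0.445 ± 0.0671 to 3.34 ± 0.261 and 2.01 ± 0.270 CPM (called in both). PPIB, also on this list, measured 292.4 ± 5.41 CPM in RFP, 373.9 ± 7.13 in ETS1-Low and 278.4 ± 12.8 in ETS1-High. It was called higher in ETS1-Low (log2 0.355, edgeR adjusted p = 8.22e-15). Its call as lower in ETS1-High (log2 -0.07, edgeR adjusted p = 0.0379) was lost in 9 of 19 alternative settings. PCOLCE2, an enhancer of procollagen cleavage, rose 2.94-fold in ETS1-Low (log2 1.56, SE 0.0916, edgeR adjusted p = 5.14e-21). Its smaller change in ETS1-High (log2 0.25, edgeR adjusted p = 0.0227) lost its call in 8 of 19 alternative settings. Among them were DESeq2 (adjusted p = 0.0743) and FPKM (limma adjusted p from 0.509 to 0.658). The copper importer SLC31A1 fell from 62.7 ± 2.24 to 39.03 ± 0.452 and 50.6 ± 2.13 CPM, and CCS, a copper chaperone for superoxide dismutase, rose from 17.4 ± 0.877 to 26.1 ± 0.481 and 26.6 ± 0.0891 (each called in both).

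Other matricellular genes formed a list of 26, of which 18 were tested. In ETS1-High against RFP 8 were called higher and 9 lower (median -0.14), and in ETS1-Low 4 higher and 11 lower (median -0.65). Between the ETS1 groups 8 were higher in ETS1-High and 3 lower, with a median of 0.85, or 0.42 with 4 scarce genes set to a bound. The shares called were 94.4%, 83.3% and 61.1%, beside 74.2%, 74.1% and 59.2% of all tested genes, so here too the last share lay near the background. The shares called with at least 2-fold change were 66.7%, 55.6% and 38.9%, beside 21%, 20.6% and 9.74% of all tested genes. CCN1, an integrin-binding CCN protein, rose from 28.8 ± 0.700 CPM to 84.5 ± 4.88 in ETS1-Low and 218.4 ± 8.88 in ETS1-High, while CCN2 fell from 182.9 ± 5.99 to 101.7 ± 4.04 and 158.6 ± 7.98 (both genes called in both). BGN, the proteoglycan biglycan, measured 6.63 ± 0.905, 0.603 ± 0.0884 and 9.86 ± 0.994 CPM, and FSTL1, a SPARC family glycoprotein, 244.0 ± 0.745, 160.6 ± 0.455 and 290.7 ± 3.41. BGN and FSTL1 were both called lower in ETS1-Low and higher in ETS1-High, as were LOX, TNC and POSTN. Among other genes related to SPARC, SMOC2 fell from 86.6 ± 2.57 CPM to 5.58 ± 0.361 and 1.81 ± 0.165, and SPARCL1 went from 283 to 335 counts per RFP library to at most 1 in ETS1-Low and at most 2 in ETS1-High. TGFBI, which encodes a protein related to periostin, rose from 460.1 ± 12.8 CPM to 530.3 ± 6.72 and 1090 ± 11.2, unlike POSTN in ETS1-Low, and NID2, a basement membrane linker, from 14.4 ± 0.797 to 60.5 ± 3.42 and 37.7 ± 1.38.

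Receptors of these proteins formed a list of 23, of which 18 were tested: 10 higher and 8 lower in ETS1-High against RFP (median 0.16), 7 higher and 8 lower in ETS1-Low (median -0.05), and 6 higher and 8 lower between the ETS1 groups (median -0.05, or -0.03 with 3 scarce genes set to a bound). The shares called were 100%, 83.3% and 77.8%, beside 74.2%, 74.1% and 59.2% of all tested genes. With at least 2-fold change they were 44.4%, 38.9% and 11.1%, beside 21%, 20.6% and 9.74%, so the last of these lay near the background. ITGA5 and ITGA4, integrin subunits that bind fibronectin, changed in opposite directions, while ITGAV (log2 -0.25 in ETS1-Low and 0.25 in ETS1-High) and ITGB1 (0.25 and 0.15) had small changes, each called by edgeR. ITGA5 fell from 139.9 ± 0.959 CPM to 53.0 ± 0.830 in ETS1-Low and 53.3 ± 0.995 in ETS1-High (2.64-fold, edgeR adjusted p = 2.5e-38, and 2.62-fold, edgeR adjusted p = 2.1e-38). ITGA4 rose from 0.780 ± 0.173 to 24.8 ± 0.625 and 48.3 ± 0.757 CPM (31.7-fold, edgeR adjusted p = 1.38e-43, and 61.8-fold, edgeR adjusted p = 1.24e-48). ITGA3 rose from 5.79 ± 0.642 to 28.7 ± 0.745 and 16.5 ± 0.950 CPM, and PTPRZ1, a receptor for tenascins, fell from 31.0 ± 0.387 to 12.6 ± 0.684 and 7.49 ± 0.297 (each called in both). ITGB8, an integrin subunit that pairs with ITGAV, had 38 to 57 counts per library in RFP, at most 1 in ETS1-Low and 142 to 174 in ETS1-High. ITGA9, a subunit that binds tenascin C, had 79 to 95 counts in RFP, at most 2 in ETS1-Low and 2 to 5 in ETS1-High. EGFR went from 221 to 251 counts in RFP to at most 1 in each ETS1 library. The syndecan SDC1 was lower in ETS1-High alone among the comparisons with RFP (1.34 ± 0.106 CPM against 6.28 ± 0.312, edgeR adjusted p = 2.4e-22), with 6.18 ± 0.725 in ETS1-Low (edgeR adjusted p = 0.824), and ETS1-High differed from ETS1-Low as well (log2 -2.20, edgeR adjusted p = 2.05e-21).

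**Figure D5:**
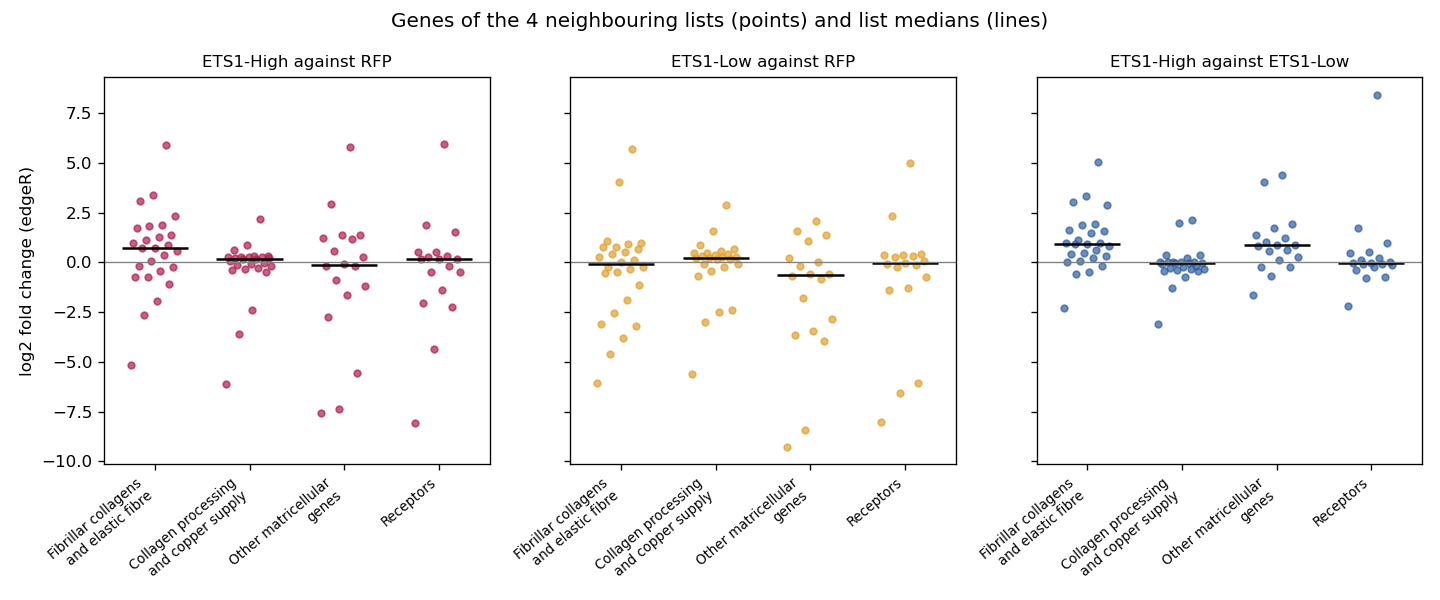
Log2 fold changes (edgeR, vertical axis) of the tested genes (points) of the 4 lists and their medians (lines) in the 3 comparisons. The collagen and elastic fibre list has its highest median in ETS1-High against ETS1-Low (0.92), and the points of EGFR, SPARCL1, THBS2 and ITGB8, among the most extreme, rest on at most 3 counts per library in a group, so their fitted size depends on the prior count.

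The genes most like each one in pattern were found by the root mean square difference of log2 CPM over the 9 libraries, each gene centred on its own mean, among genes averaging 100 counts or more. UNC5B (mean 16.8 CPM in RFP, 13.1 in ETS1-Low and 57.5 in ETS1-High) was nearest to LOX, at a difference of 0.0992, and CACNA1C followed at 0.13. NCKAP5 (16.4, 35.7 and 47.4 CPM) was nearest to LOXL1 at 0.0504 and PECAM1 followed at 0.0526. ARHGAP23 (45.8, 30.4 and 64.5 CPM) was nearest to TNC at 0.081, before CDH3 at 0.091. The nearest to FN1 were UGT3A2 (0.0425) and TBC1D2B (0.0432), and to SPARC CD276 (0.0594) and SLC45A3 (0.0647). SLC45A3 was also the second nearest to LOXL2 (0.118), after KIF9 (0.109). IL13RA1 (18.6, 1.06 and 5.64 CPM) and NPY1R (16.0, 0.770 and 4.93) were nearest to THBS1, at 0.189 and 0.196. For POSTN the nearest were SHISA9 (0.3) and the matricellular gene BGN (0.304), and for LOXL3 CTC-479C5.10 (0.0777) and FAM229A (0.0853).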

How the data were processed

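Gene-level expected counts and, in a second table, FPKM values (scaled to gene length and library size) were deposited by the authors, both RSEM output per the file names. The labels name a stranded mRNA kit, and the submitters' processing notes name GRCh38, cutadapt 4.4, STAR 2.7.3, featureCounts, Subread 2.0.3 and limma 3.38.3, without their roles. The annotation release, and whether counting used strand, are not given in the sources used here. Between 9% and 10.3% of the deposited expected counts per library were not whole, for TNC and FN1 in 9 of 9 libraries. L and H in the column names were read as Low and High, and 0 columns were left without a library.

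Expected counts were rounded and tested with edgeR 4.0.16 in R 4.3.3 (TMM, filterByExpr by group, robust quasi-likelihood fit of all 9 libraries, Benjamini-Hochberg adjustment over 17235 genes). SE is the log2 fold change divided by the square root of F. Levels between genes were compared on the deposited FPKM only. Replicate libraries differed by more than sampling noise (chi-square per gene 2.66 to 5.19 over 9 pairs, where noise gives a value near 1), so none was treated as a second deposit of another, which does not show that they were separate cultures. The test was checked on simulated counts. Positions come from GENCODE v44 and upstream sequences from RefSeq (GRCh38.p14).

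Named genes were the 10 genes and ETS1. Each of the 4 lists gave its 4 tested genes of lowest p for ETS1-High against RFP and up to 2 further genes each for the other 2 comparisons. The 2 nearest genes by pattern were named for each tested gene. COL1A1, COL1A2, DCN, LUM, PDGFRA, PDGFRB, ITGAV, ITGB1, THBS2, CCND1, KDSR, XG, LIPI, NKX2-2, NR0B1, FBN1, CRTAP and P3H4 were named after their values were seen. The genes and lists were chosen with earlier results of these data known. Alternatives were DESeq2 1.42.0, other size factors, other count filters, limma 3.58.1 on log2(FPKM + 1) and log2(FPKM + 0.1), a replicate block, a fit of only the groups compared, a 5 Mb neighbourhood, and leaving out each library. Replicate numbers did not pair the libraries: of 9 same-numbered pairs across groups, 0 had a correlation of deviations over 0.1 (range -0.0295 to 0.0276).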

Additional observations from a re-analysis of the deposited data

Results flagged for a closer look

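Of the 9 tested genes, 3 were called in opposite directions in ETS1-High and ETS1-Low against the shared RFP libraries. For LOX the fall in ETS1-Low was 1.41-fold and was not called on FPKM (limma adjusted p from 0.0588 to 0.197). The ETS1-High minus ETS1-Low log2 difference, tested directly with edgeR, was 2.33 for LOX (17.5 ± 1.15 against 3.46 ± 0.281 CPM; adjusted p = 1.97e-29). It was 1.24 for TNC (2730 ± 64.2 against 1159 ± 16.4 CPM; adjusted p = 1.11e-36). It was 4.92 for POSTN (1.81 ± 0.223 against 0.0590 ± 0.0427 CPM; adjusted p = 1.95e-17). Each difference held in 3 of 3 libraries of both groups, with no overlap. Of all tested genes, 74.2% and 74.1% were called in ETS1-High and ETS1-Low against RFP, and 59.2% between the ETS1 groups. How many of all tested genes were called in opposite directions, or did not overlap, was not counted. Among list genes MFAP4, BGN, FSTL1, LTBP1, FBN1, COL1A1, ITGAV and ITGB8 were also called higher in ETS1-High and lower in ETS1-Low. CRTAP, P3H4 and PPIB were called the other way round. Opposite calls are therefore not particular to LOX, TNC and POSTN.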

How the results depend on the processing

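Of 492 values of the 9 genes recomputed under alternatives, 472 kept their direction and their side of the threshold, 20 kept the direction but lost the call, and 0 changed sign. The 20 were LOXL2 in ETS1-High against ETS1-Low (10), LOXL3 in ETS1-High against RFP (5), LOX in ETS1-Low against RFP (3, all on FPKM), LOXL2 in ETS1-Low against RFP (1, adjusted p = 0.0802 on FPKM + 1 without a filter) and THBS1 between the ETS1 groups (1, adjusted p = 0.0523 in the same setting). With a mean FPKM of at least 1 only 6 of the 10 genes could be tested, and 5 were called in ETS1-Low against RFP and 5 in ETS1-High against ETS1-Low with either pseudocount. With the replicate block 9, 8 and 8 of the 9 genes were called, and 12701, 12729 and 10122 of all genes, and it changed no call of the 9.

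Genes called at 2-fold or more numbered 3626, 3555 and 1679, against 2035, 1985 and 831 with at least 10 counts in every library, 1257, 1219 and 430 on FPKM + 1, 1730, 1712 and 699 on FPKM + 0.1 (both with a mean FPKM of at least 1), and 1407, 1359 and 458 on FPKM + 1 without a filter. In that last setting 38.4% and 36.8% of calls against RFP were higher, against 49.8% and 51.2% in the main fit. The shares were also lower with a mean FPKM of at least 1 (41.2% and 41.6% on FPKM + 1, 41.3% and 41.6% on FPKM + 0.1). With upper-quartile factors they were 44.5% and 46.6%. Sign changes among list genes touched only log2 differences that were not called: SDC1 in ETS1-Low against RFP (-0.02; -0.0872 to 0.0757 without single libraries, 0.00289 on FPKM + 1 with or without a filter and 0.00469 on FPKM + 0.1). In ETS1-High against ETS1-Low they were P4HB (0.00682 with DESeq2 size factors, 0.00686 with DESeq2, -0.0183 to 0.0168 without single libraries, 0.00800 and 0.00802 on FPKM), ITGA5 (-0.000589 with upper-quartile factors), CCS (-0.00277 and -0.00285 on FPKM), SPARCL1 (-0.0415 on FPKM) and EGFR (-0.622 to 0.407 without single libraries, 0 on FPKM). The cause of these changes was not tested. Of 1773 values of the named list genes, 26 kept the direction but lost the call and 2 gained one. In ETS1-High against RFP the lost calls were PPIB (9), PCOLCE2 (8), FKBP10 (3) and FSTL1 (1). In ETS1-High against ETS1-Low they were FBN2 (3), PLOD2 (1) and TLL1 (1), and ITGA9 gained 2. Narrowing the neighbourhood from 10 to 5 Mb turned 4 medians near 0: TNC in ETS1-High against RFP (-0.03 to 0.05), POSTN in the same comparison (-0.06 to 0.02), SPARC between the ETS1 groups (-0.02 to 0.02) and LOXL3 between them (0.02 to -0.03). In ETS1-Low at most 18 counts per library for THBS1, 4 for POSTN and 4 for LOXL4 limit the precision.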
